A study of Mus musculus with 12 samples.

Results

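Transcripts of 32 glycolysis and hypoxia response genes were described in mouse macrophages with and without floxed Klf6 alleles, untreated or treated with TNF. The genes were taken from a list of symbols of these pathways and matched to the Ensembl identifiers of the deposited tables, and all 32 had a row, out of 24465 genes with a row in either table. Of them, 21 encode glycolytic enzymes and the transporters at the start and end of the pathway, and 11 are genes known to respond to low oxygen or to set that response. RNA was sequenced from bone marrow-derived macrophages, which are grown in culture from marrow cells. Cells came from Lyz2cre mice or from Klf6fl/fl:Lyz2cre mice, and each genotype was studied untreated and after 6 h of TNF, a cytokine of inflammation, at 10 ng/ml. Each of the 4 groups held 3 libraries. Both genotypes carry Lyz2cre, which expresses the Cre recombinase from the lysozyme 2 locus in myeloid cells, so the groups differ by label in the floxed Klf6 alleles alone. The product of Klf6 is a DNA-binding protein of the Krüppel-like family, and cells with the floxed alleles are named Klf6-deleted in what follows. The labels do not give the floxed exons, the strain or the age of the mice. Nor do they say that libraries within a group are separate mice or cultures, and p-values therefore cover no more than the spread among these libraries, which may be technical.

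Glycolysis turns glucose into pyruvate and then lactate. Glucose enters through a membrane transporter, is phosphorylated by hexokinase, passes the committed step at phosphofructokinase and is split by aldolase, and the lower enzymes recover ATP before lactate leaves through a monocarboxylate transporter. Macrophages are known to raise this pathway when they meet inflammatory signals. Under low oxygen the hypoxia-inducible factor, whose alpha subunit is encoded by Hif1a and is marked for breakdown by prolyl hydroxylases when oxygen is present, binds short motifs with the core ACGTG or GCGTG near many of these genes.

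That core is shown in promoters because it is the known target sequence of the hypoxia-inducible factor, whose binding was not measured here. RefSeq sequences (mouse build GRCm38.p6) were matched for 30 of the 32 members, all but Ndrg1 and Bhlhe40, and the 250 bases before each annotated start were searched on both strands. ACGTG was present in 16 of the 30 members, 53.3%, against 24.9% of the 9820 tested genes with such a sequence and 18.5% of all 27025 genes in the table. GCGTG was present in 17 members, 56.7%, against 49.7% and 30.9%. One or the other was present in 26 members, 86.7%, against 61.1% and 41.5%. The palindrome CACGTG, which counts as ACGTG on both strands, was present in 4 members, 13.3%, against 9.94% of tested genes. Members had 1.57 annotated windows per gene and tested genes 1.28, and median GC content was 60.5% and 59.6%. Tpi1, Gpi1, Eno2 and Mif had neither motif in these windows. A match is a description of the letters in the window and not a measured binding site. The windows below were picked after their genes' values were seen, from those free of annotated exons, and show the motif in glycolytic members from hexokinase to lactate dehydrogenase and in the hypoxia members with the largest differences between genotypes. Each is 250 bases, 5′ to 3′ on the strand of its gene, and capitals mark ACGTG or GCGTG, or their reverse complements CACGT and CACGC.
Hk2: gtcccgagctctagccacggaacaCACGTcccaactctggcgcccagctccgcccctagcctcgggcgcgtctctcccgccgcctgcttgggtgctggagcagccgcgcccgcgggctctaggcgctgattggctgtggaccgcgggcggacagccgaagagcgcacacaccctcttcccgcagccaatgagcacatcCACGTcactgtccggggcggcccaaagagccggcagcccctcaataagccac
Gapdh: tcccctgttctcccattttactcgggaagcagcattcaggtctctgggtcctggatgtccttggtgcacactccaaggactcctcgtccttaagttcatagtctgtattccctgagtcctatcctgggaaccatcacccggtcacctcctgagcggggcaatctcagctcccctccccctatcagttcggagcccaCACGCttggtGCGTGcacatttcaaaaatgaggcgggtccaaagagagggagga
Pgk1: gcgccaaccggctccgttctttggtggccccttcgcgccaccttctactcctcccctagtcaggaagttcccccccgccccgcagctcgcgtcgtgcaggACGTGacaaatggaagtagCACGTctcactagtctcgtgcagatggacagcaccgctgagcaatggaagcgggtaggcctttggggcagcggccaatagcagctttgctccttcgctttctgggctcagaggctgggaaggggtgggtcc
Ldha: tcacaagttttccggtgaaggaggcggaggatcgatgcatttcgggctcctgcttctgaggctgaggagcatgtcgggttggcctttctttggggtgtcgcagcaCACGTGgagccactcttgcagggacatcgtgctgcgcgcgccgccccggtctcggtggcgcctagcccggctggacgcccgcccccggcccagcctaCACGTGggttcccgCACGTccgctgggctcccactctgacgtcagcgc
Egln3: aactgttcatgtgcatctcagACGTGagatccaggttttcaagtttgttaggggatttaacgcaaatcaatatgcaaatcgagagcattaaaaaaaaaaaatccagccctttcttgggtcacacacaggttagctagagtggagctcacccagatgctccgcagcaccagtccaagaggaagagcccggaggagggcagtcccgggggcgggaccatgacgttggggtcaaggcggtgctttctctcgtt
Adm: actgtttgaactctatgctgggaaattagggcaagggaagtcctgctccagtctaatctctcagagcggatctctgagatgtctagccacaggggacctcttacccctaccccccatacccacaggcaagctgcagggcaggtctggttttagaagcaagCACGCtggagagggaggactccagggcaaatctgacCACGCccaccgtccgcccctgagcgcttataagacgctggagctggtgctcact
The Hk2 window lies at chr6:82774455-82774704, minus strand, that of Gapdh at chr6:125165774-125166023, minus strand, and that of Pgk1 at chrX:106186850-106187099, plus strand. The Ldha window lies at chr7:46845554-46845803, plus strand, upstream of 1 of the annotated starts, that of Egln3 at chr12:54203875-54204124, minus strand, and that of Adm at chr7:110627407-110627656, plus strand. Pgk1 holds ACGTG 150 and 131 bases before its start, and Ldha holds CACGTG at 2 places and a further single ACGTG. The Egln3 window holds 1 ACGTG, 229 bases before the start, while Adm and Gapdh hold GCGTG alone.

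The libraries held 16.9 to 23.4 M reads. Values are normalized counts, that is, reads divided by 1 size factor per library, and the untreated and TNF tables were normalized separately. Klf6 itself was at 10055, 9984 and 10314 in untreated Lyz2cre and 7004, 7405 and 6894 in untreated Klf6-deleted libraries, and with TNF at 7622, 7155 and 7564 and 4211, 4133 and 4139.9, so transcripts were lower in every Klf6-deleted library but present. A gene-level value is a limited check of a deletion, since reads from exons that were kept still count. Genotypes were compared by limma on log2(value + 1) and a gene was called at a Benjamini-Hochberg adjusted p below 0.05 over all genes tested. Scaling to library sums instead raised the median log2 difference of all genes by 0.13 without TNF and 0.33 with TNF, since normalized counts summed to 19.0 and 16.4 M per library in Klf6-deleted cells and to 20.8 and 20.6 M in Lyz2cre cells. The share of calls that were higher then went from 48.5 to 68.0% without TNF, from 46.2 to 80.4% with TNF and from 49.2 to 69.2% for the difference between them.

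Without TNF, Klf6-deleted cells had more transcripts of most glycolysis genes, including those of the glucose transporter and the lactate exporter. Of the 32 members, all tested, 27 were called higher and 2 lower (Pfkfb4 and Ndrg1), and 3 were not called (Pfkm, Mxi1 and Kdm3a). Among all 12715 genes tested, 27.6% were called higher and 29.3% lower. Of the members, 9 were called and at least 2-fold higher (Pgk1, Slc2a1, Eno2, Slc16a3, Pfkl, Adm, Egln3, Mif and Ankrd37), beside 11.1% of all genes. The 21 glycolysis genes had 19 higher and 1 lower with a median log2 difference of 0.86, a 1.82-fold difference, and the 11 hypoxia genes had 8 higher and 1 lower with a median of 0.59. The median over all genes tested was -0.01.

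With TNF the genotypes differed less in most glycolysis genes, and some members turned. Adm was below the filter on low values, and of the 31 members tested 25 were called higher and 5 lower (Hk1, Hk3, Pfkp, Pfkfb4 and Hif1a), with Pfkm not called. Among the 11717 genes tested, 26.5% were higher and 30.8% lower. Only 4 members were called and at least 2-fold higher (Eno2, Egln3, Ankrd37 and Mxi1), beside 8.13% of all genes. Glycolysis genes had 16 higher and 4 lower with a median log2 difference of 0.44, a 1.36-fold difference. The 10 hypoxia genes tested had 9 higher and 1 lower with a median of 0.63, and the median of all genes was -0.01.

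The change in the genotype difference itself, with TNF minus without, ran in opposite directions in many members of the 2 classes. It was tested by limma over the 4 groups in 13062 genes, of which 24.1% were called higher and 24.9% lower. Of the 21 glycolysis genes 16 were lower (a smaller or turned difference with TNF, or a deeper fall for Pfkfb4), 2 were higher (Gpi1 and Eno2) and 3 were not called, with a median of -0.33. Of the 11 hypoxia genes 6 were higher (Egln1, Egln3, Ndrg1, Ankrd37, Mxi1 and Kdm3a), 3 lower (Hif1a, Adm and Mif) and 2 not called, with a median of 0.28. The median over all genes was 0.01. Whether the classes differ as classes was not tested. Scaled to library sums, 12 members were higher, 14 lower and 6 not called, beside 4930 genes higher and 2197 lower of the 13062. The share of members called higher was then near that of all genes. The class medians under this scaling were -0.13 and 0.47, beside 0.20 for all genes. In all, 22 members were higher in Klf6-deleted cells in both conditions, 4 were higher without TNF and lower with it (Hk1, Hk3, Pfkp and Hif1a), and 1, Ndrg1, was lower without and higher with it. Pfkfb4 was lower in both, Mxi1 and Kdm3a were called with TNF alone, Adm was tested without TNF alone, and Pfkm was called in neither. How many of all genes show each of these joint patterns was not counted, so the patterns have no share of all genes beside them.

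**Figure D1:**
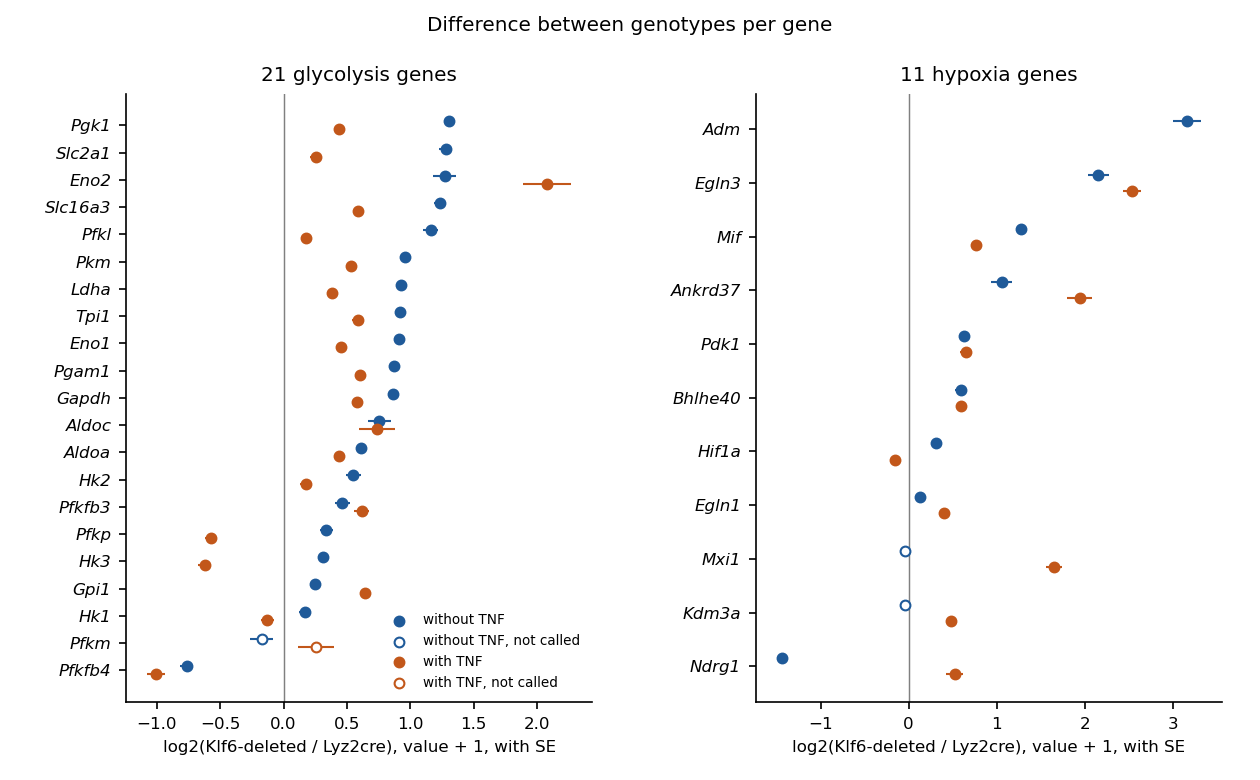
Log2 difference between Klf6-deleted and Lyz2cre cells for each glycolysis gene (left) and hypoxia gene (right), without TNF (blue) and with TNF (orange), on the log2(value + 1) scale with its standard error from limma; open points were not called. Most glycolysis genes lie nearer 0 with TNF than without, whereas Mxi1, Ankrd37, Egln3, Kdm3a and Ndrg1 lie further to the right with TNF.

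Transport showed the pattern at both ends of the pathway. Slc2a1, which encodes the main glucose transporter of activated macrophages, was at 779, 734 and 732 in untreated Lyz2cre libraries and at 1899.7, 1747 and 1800.0 in untreated Klf6-deleted ones. With TNF, Slc2a1 was at 4580.4, 4409 and 4432 and 5271, 5261 and 5461. Klf6-deleted libraries were the higher in both conditions with no overlap, but by a narrow margin with TNF. The log2 difference by limma was 1.28 (SE 0.052, adjusted p = 3.59e-13) without TNF and 0.25 (SE 0.041, adjusted p = 6.97e-05) with TNF. The difference shrank by 1.02 log2 units with TNF, with a limma adjusted p = 3.34e-11.
Slc16a3 encodes the lactate exporter MCT4. It was at 1044, 990.3 and 986 in Lyz2cre and 2409, 2254 and 2450.3 in Klf6-deleted libraries without TNF. With TNF, Slc16a3 was at 5586, 5189.6 and 5372 and 8414, 7955 and 7922. The genotypes did not overlap in either condition. The limma log2 difference was 1.23 (SE 0.048, adjusted p = 2.14e-13) untreated and 0.59 (SE 0.044, adjusted p = 6.87e-09) with TNF, and the change between them was -0.65 (SE 0.063, adjusted p = 4.56e-08).

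Hexokinases trap glucose in the cell, and the 3 isozymes measured here behaved differently. Hk3, the most abundant form per kilobase of exon, was at 6223, 6677 and 6316 in untreated Lyz2cre and 7778, 8308 and 7766 in untreated Klf6-deleted libraries. With TNF, Hk3 was at 5673, 4967 and 5449 and 3521, 3503 and 3413. Klf6-deleted libraries were therefore the higher without TNF and the lower with it, with no overlap. The limma log2 difference went from 0.31 (SE 0.039, adjusted p = 1.57e-06) to -0.62 (SE 0.050, adjusted p = 1.9e-08), and the change was -0.93 (SE 0.065, adjusted p = 3.52e-10).
Hk2, the inducible isozyme, whose promoter window is shown above, was at 874 ± 57.2 and 1279 ± 52.8 (SD, n = 3) in untreated Lyz2cre and Klf6-deleted cells and at 3246 ± 118 and 3662 ± 139.9 with TNF. It was higher in Klf6-deleted cells in both conditions, by 0.55 and 0.17 log2 units (limma adjusted p = 1.78e-07 and 0.0049).
Hk1, the housekeeping isozyme, was at 2222, 2345 and 2211 in untreated Lyz2cre and 2662, 2522 and 2427 in untreated Klf6-deleted libraries. With TNF, Hk1 was at 2973, 2712 and 3017 and 2624, 2693 and 2627. The groups were narrowly apart in both conditions. The difference of 0.17 without TNF was called (limma adjusted p = 0.00378). That of -0.13 with TNF was called weakly (limma adjusted p = 0.0365) and is not firm, because it turned to 0.20 when values were scaled to library sums and lost its call in edgeR, in DESeq2 and with the replicate block (limma adjusted p = 0.0667). It also lost it without Lyz2cre library 1 or 3, or any 1 of the Klf6-deleted libraries, at -0.10 to -0.14. The change, -0.30, was called, but not after scaling to library sums, at -0.10 (limma adjusted p = 0.178).

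Phosphofructokinase, the committed step, has 3 isozymes, and Pfkl, the liver type, differed most without TNF. Pfkl was at 1268, 1461 and 1387 in untreated Lyz2cre and 3148, 2832 and 3212 in untreated Klf6-deleted libraries. With TNF, Pfkl was at 6338, 5979 and 6199.6 and 7259, 6849.8 and 6823. The separation was wide without TNF and narrow with it, and no libraries overlapped. By limma the log2 difference was 1.16 (SE 0.056, adjusted p = 3.96e-12) without TNF and 0.18 (SE 0.043, adjusted p = 0.00218) with it, a change of -0.98 (SE 0.075, adjusted p = 1.48e-09).
Pfkp, the platelet type, was at 1642, 1661 and 1656 in untreated Lyz2cre and 2077, 2266 and 1931 in untreated Klf6-deleted libraries. With TNF, Pfkp was at 2678, 2673 and 2653 and 1743, 1760.2 and 1869. Its direction turned as that of Hk3 did, from higher to lower in Klf6-deleted cells, and the groups did not overlap. The limma log2 difference was 0.34 (SE 0.052, adjusted p = 2.1e-05) without TNF and -0.58 (SE 0.048, adjusted p = 3.18e-08) with TNF. The gene lies on chromosome 13 at chr13:6579768-6648777 (GRCm38, GENCODE release 21), 0.709 Mb from Klf6, and whether that nearness bears on the difference was not tested. Pfkm, the muscle type, was at 384 ± 32.3 and 339.9 ± 26.8 without TNF and 183 ± 38.7 and 215 ± 7.31 with it (SD, n = 3) and was not called in either comparison (limma adjusted p = 0.11 and 0.133). With TNF it was called higher on scaling to library sums, at 0.58, and without Lyz2cre library 3, at 0.41, and a non-coding gene on the same strand overlaps 10.2% of its exons.

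The bifunctional PFKFB enzymes make the activator of phosphofructokinase, and the pair moved in opposite directions. Pfkfb4 was at 1467, 1373 and 1345 in untreated Lyz2cre and 825, 794 and 844 in untreated Klf6-deleted libraries. With TNF, Pfkfb4 was at 1226, 1229 and 1239 and 577, 679 and 587. It was the 1 member called lower in Klf6-deleted cells with and without TNF, with no overlap. Its limma log2 difference was -0.76 (SE 0.053, adjusted p = 6.33e-10) without TNF and -1.01 (SE 0.070, adjusted p = 3.03e-09) with TNF. The change between these, -0.24 (limma adjusted p = 0.028), lost its call on scaling to library sums, at -0.05, and at -0.20 to -0.24 without untreated Lyz2cre library 2 or 3, untreated Klf6-deleted library 1 or 3, or Klf6-deleted library 1 or 3 of the TNF set. Pfkfb3, the isozyme with the higher kinase activity, was at 1719 ± 165 and 2363 ± 42.9 without TNF and 1474 ± 108 and 2254 ± 27.6 with it (SD, n = 3), that is, higher in Klf6-deleted cells by 0.46 and 0.62 log2 units (limma adjusted p = 1.19e-06 and 1e-07).

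The 10 members that encode enzymes from aldolase to lactate dehydrogenase were all called higher in Klf6-deleted cells in both conditions. Pgk1 encodes phosphoglycerate kinase, the first ATP-forming enzyme, and its promoter window with 2 ACGTG motifs is printed above. It was at 4087, 3999 and 3986 in untreated Lyz2cre and 10178, 9756 and 9947 in untreated Klf6-deleted libraries. With TNF, Pgk1 was at 8799, 8731 and 9209 and 12863, 12092 and 11369. The genotypes stood far apart without TNF and nearer with it, and no libraries overlapped. The limma log2 difference was 1.31 (SE 0.034, adjusted p = 7.61e-16) and 0.44 (SE 0.047, adjusted p = 5.85e-07), and the change was -0.87 (SE 0.058, adjusted p = 1.9e-10).
Ldha encodes the lactate dehydrogenase subunit that favours lactate formation. It was at 8406, 8546 and 8427 in untreated Lyz2cre and 15959, 16155 and 16070.4 in untreated Klf6-deleted libraries. With TNF, Ldha was at 18936, 18679 and 19578 and 25108, 25248 and 24285. Klf6-deleted libraries were higher throughout. By limma the log2 difference was 0.92 (SE 0.032, adjusted p = 2.96e-14) without TNF and 0.38 (SE 0.038, adjusted p = 2.87e-07) with it.
Gapdh, the dehydrogenase often used as a reference transcript, was at 17299, 17264 and 16610.4 in untreated Lyz2cre and 30905, 30329.7 and 31904 in untreated Klf6-deleted libraries. With TNF, Gapdh was at 21253, 22732 and 23526 and 33735, 33793 and 33307. It was not level between genotypes in either condition: Klf6-deleted libraries were higher by 1.82-fold and 1.49-fold (limma adjusted p = 2.25e-13 and 5.68e-09). The change in this difference, -0.28, was -0.09 and not called when values were scaled to library sums (limma adjusted p = 0.164).

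Other enzymes of the lower pathway are given by group means ± SD (n = 3). Aldoa, the main aldolase, was at 22397 ± 289.6 and 34109 ± 129 in untreated Lyz2cre and Klf6-deleted cells and at 31458 ± 481 and 42613 ± 935 with TNF. Pkm, pyruvate kinase of the last ATP-forming step, was at 26803 ± 433 and 51903 ± 920.4, and with TNF at 31287 ± 650.5 and 45218 ± 627. Eno1, the main enolase, was at 10993 ± 206 and 20669.7 ± 590.2, and with TNF at 20405 ± 282 and 27903 ± 418. These abundant transcripts rose by 0.61, 0.95 and 0.91 log2 units without TNF and by 0.44, 0.53 and 0.45 with it. Tpi1, triose phosphate isomerase, and Pgam1, phosphoglycerate mutase, rose by 0.92 and 0.87 without TNF and by 0.59 and 0.61 with it. For these 5 genes the limma adjusted p was at most 5.01e-08, and the difference between genotypes was smaller with TNF in each (limma adjusted p from 8.9e-08 to 0.00405). Scaled to library sums, that change lost its call in Aldoa, from -0.17 to 0.03, and in Pgam1, from -0.27 to -0.07 (limma adjusted p = 0.663 and 0.215). A gene on the same strand overlaps 15.3% of the exons of Pkm. Reads of Gapdh, Ldha, Pgam1, Pgk1 and Mif may be split with processed copies that also have rows, so their levels are uncertain to that degree, and a second identifier that maps to the symbol Aldoa held 0 to 14.2 normalized counts.
In Gpi1 and Eno2 the genotype difference was instead larger with TNF. Gpi1, glucose phosphate isomerase, was at 7502 ± 109.9 and 8922 ± 172 without TNF and 6184 ± 78.3 and 9649 ± 173 with TNF, so its difference grew from 0.25 to 0.64 log2 units (limma adjusted p of the change = 7.17e-07). Eno2, an enolase best known from neurons, was at 214, 209 and 243 in untreated Lyz2cre and 541, 577 and 494 in untreated Klf6-deleted libraries. With TNF, Eno2 was at 98.5, 96.8 and 52.7 and 353, 332 and 333. Klf6-deleted libraries were higher with no overlap, and Lyz2cre library 3 was the lowest with TNF. For Eno2 the limma log2 difference was 1.27 (SE 0.090, adjusted p = 8.48e-10) and 2.08 (SE 0.19, adjusted p = 9.47e-08), the latter a 4.22-fold difference. Aldoc, a minor aldolase, was higher by 0.76 and 0.74 log2 units (limma adjusted p = 7.94e-07 and 0.000303), and the change between these was not called (limma adjusted p = 0.944).

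**Figure D2:**
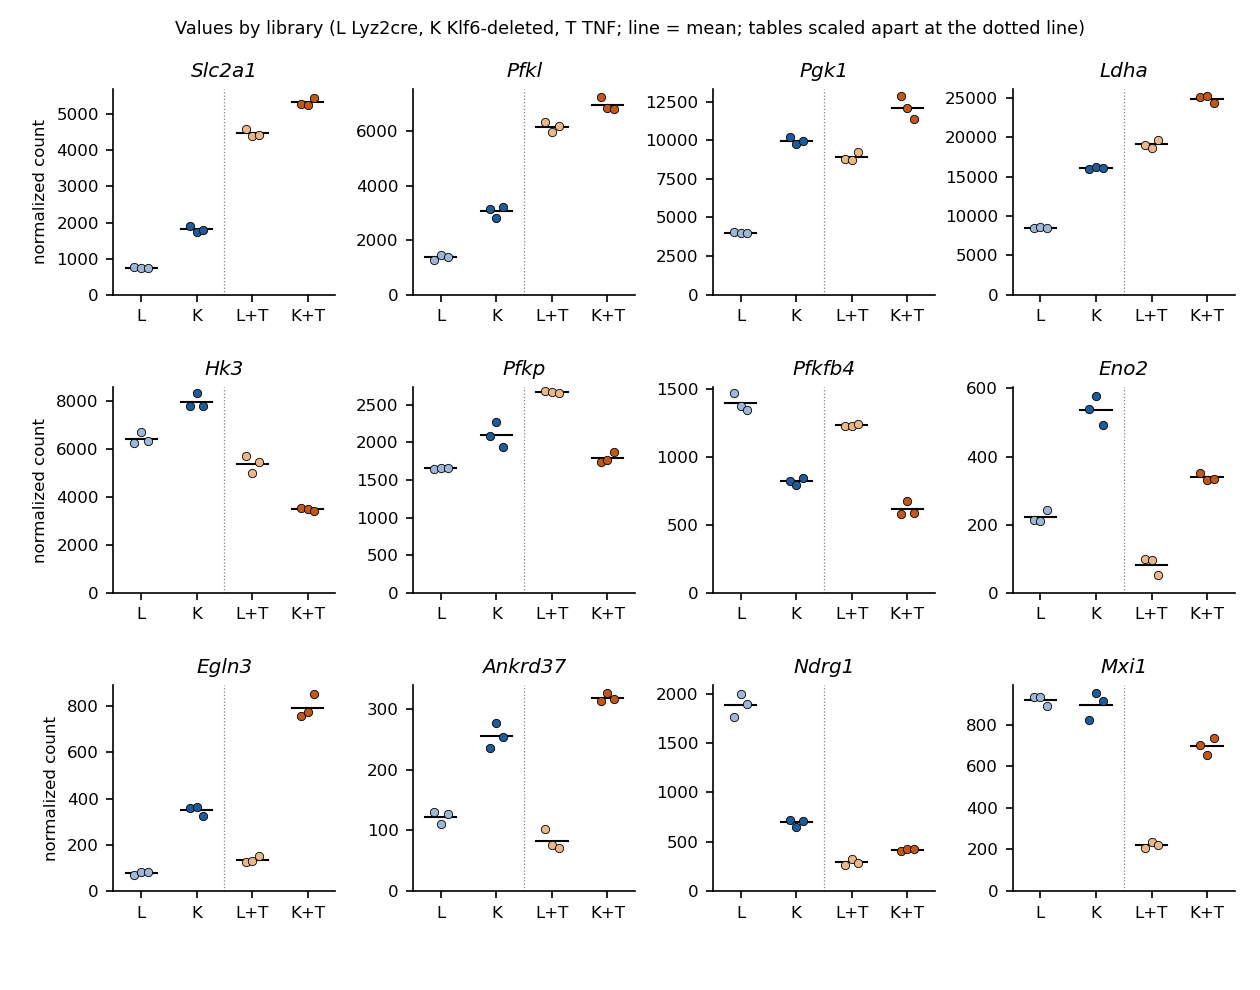
Normalized counts of 12 members in each library (points) with the group mean (line), for Lyz2cre (L), Klf6-deleted (K) and the same with TNF (L+T, K+T); the vertical axes start at 0 and the 2 tables, parted by the dotted line, were normalized separately. Slc2a1, Pfkl, Pgk1 and Ldha are higher in Klf6-deleted cells in each table, Hk3 and Pfkp turn, and Ndrg1 falls from 1886 to 695 untreated but not with TNF.

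Among the hypoxia genes, the oxygen-sensing machinery came first. Hif1a was at 2476, 2420.1 and 2474 in untreated Lyz2cre and 3054, 2813 and 3269 in untreated Klf6-deleted libraries. With TNF, Hif1a was at 7210.3, 7519 and 7449 and 6566, 6499 and 6932. It was slightly higher in Klf6-deleted cells without TNF and slightly lower with it, with no overlap. In limma its log2 difference was 0.31 (SE 0.048, adjusted p = 2.49e-05) and -0.15 (SE 0.042, adjusted p = 0.00593), and the latter turned to 0.18 when values were scaled to library sums. The protein, whose breakdown depends on oxygen, was not measured.
Egln3, a prolyl hydroxylase that is itself induced by the factor it marks, was at 68.9, 82.3 and 82.0 in untreated Lyz2cre and 361, 362 and 325 in untreated Klf6-deleted libraries. With TNF, Egln3 was at 124, 131 and 152 and 756, 774 and 851. The genotypes were far apart in both conditions, by 4.46-fold and 5.82-fold (limma adjusted p = 3.54e-11 and 2.3e-12). The change with TNF, 0.39 (limma adjusted p = 0.0484), lost its call in edgeR, in DESeq2 and with the replicate block (limma adjusted p = 0.054), and, at 0.32 to 0.42, without any 1 library other than untreated Lyz2cre library 1 and Lyz2cre library 3 with TNF. Egln1, the more widely expressed hydroxylase, was at 1363 ± 57.0 and 1493 ± 54.8 without TNF and 1598 ± 76.6 and 2122 ± 162 with it (SD, n = 3). Its difference was 0.13 without TNF (limma adjusted p = 0.0305), which lost its call, at 0.10 to 0.13, without Lyz2cre library 2 or 3 or Klf6-deleted library 1 or 3, and 0.41 with TNF (limma adjusted p = 2.5e-05).

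Secreted and metabolic targets differed widely in what TNF did to them. Adm, which encodes the vasodilator peptide adrenomedullin, was at 31.7, 46.0 and 32.8 in untreated Lyz2cre and 346, 318 and 336 in untreated Klf6-deleted libraries. With TNF, Adm was at 15.9, 9.27 and 14.9 and 25.2, 14.5 and 25.3. Untreated Klf6-deleted cells stood alone, 8.95-fold higher (limma adjusted p = 7.32e-12), while with TNF the levels were low in both genotypes, the libraries overlapped and no test was made. The change with TNF was -2.51 (SE 0.38, adjusted p = 1.42e-05) by limma.
Mif encodes macrophage migration inhibitory factor, a cytokine. It was at 1356, 1461 and 1269.9 in untreated Lyz2cre and 3158, 3321 and 3449.7 in untreated Klf6-deleted libraries. With TNF, Mif was at 1786, 1676 and 1797 and 3107, 3083 and 2743. Klf6-deleted libraries were higher throughout, and the limma log2 difference was 1.28 (SE 0.052, adjusted p = 3.19e-13) without TNF and 0.76 (SE 0.056, adjusted p = 6.54e-09) with it. Pdk1, which encodes a pyruvate dehydrogenase kinase, was at 983 ± 50.7 and 1522 ± 61.7 without TNF and 939 ± 64.4 and 1474 ± 49.6 with it (SD, n = 3). Its difference, 0.63 and 0.65, was 0.02 apart and not called so (SE 0.082, limma adjusted p = 0.85). Bhlhe40, a transcriptional repressor, was at 465 ± 12.0 and 703 ± 6.42 without TNF and 1242 ± 55.9 and 1882 ± 26.8 with it. Its differences of 0.59 and 0.60 log2 units were 0.01 apart, also not called (SE 0.073, limma adjusted p = 0.95). Scaled to library sums, the change was called for both, at 0.22 for Pdk1 and 0.20 for Bhlhe40 (limma adjusted p = 0.0426 and 0.034).

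In 3 further hypoxia genes, Mxi1, Ankrd37 and Kdm3a, the genotype difference was larger with TNF, and in Ndrg1 it turned and became smaller. Ndrg1, a stress gene strongly induced by hypoxia, was at 1765, 1998 and 1896 in untreated Lyz2cre and 721, 651 and 714 in untreated Klf6-deleted libraries. With TNF, Ndrg1 was at 261, 327 and 285 and 402, 421 and 429.6. It was thus 2.71-fold lower without TNF and 1.44-fold higher with TNF in Klf6-deleted cells, with no overlap in either. By limma these log2 differences were -1.44 (SE 0.058, adjusted p = 3.26e-13) and 0.52 (SE 0.098, adjusted p = 0.000256), and the change was 1.96 (SE 0.11, adjusted p = 1.54e-11).
Mxi1, a MAX-binding antagonist of Myc, was at 934, 932 and 891 in untreated Lyz2cre and 825, 953 and 914 in untreated Klf6-deleted libraries. With TNF, Mxi1 was at 207, 238 and 220.1 and 704, 654 and 736. The genotypes overlapped without TNF and stood far apart with it, the Lyz2cre libraries with TNF being the lowest of the 4 groups. For Mxi1 the limma log2 difference was -0.04 (SE 0.060, adjusted p = 0.628) without TNF, which was not called, and 1.65 (SE 0.089, adjusted p = 1.14e-10) with it, and the change was 1.69 (SE 0.10, adjusted p = 4.87e-11).
Ankrd37, a small ankyrin-repeat gene known as a hypoxia target, was at 130.2, 110.2 and 127 in untreated Lyz2cre and 236, 277 and 254 in untreated Klf6-deleted libraries. With TNF, Ankrd37 was at 101, 76.2 and 71.1 and 313, 326 and 317. Klf6-deleted libraries were higher in both conditions with no overlap, by 2.08-fold and 3.85-fold (limma adjusted p = 4.39e-07 and 6.04e-09), and the change was 0.89 (limma adjusted p = 0.000693). Exons of Lrp2bp on the opposite strand overlap 22.7% of its exons, and whether strand was used in counting is not given in the sources used here. Kdm3a, a histone demethylase, was at 1841 ± 32.4 and 1791 ± 71.0 without TNF and 1717 ± 10.8 and 2396 ± 33.0 with it (SD, n = 3). Its difference was -0.04 without TNF (limma adjusted p = 0.476) and 0.48 with it (limma adjusted p = 1.92e-07).

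The make-up of isozyme families was set out as each gene's share of the family's normalized counts per kilobase of exon, averaged over 3 libraries with the SD, with no test. Hk3 made up 80.9% ± 0.596 of hexokinase transcripts in untreated Lyz2cre and 80.8% ± 0.995 in untreated Klf6-deleted cells. With TNF its share was 62.2% ± 0.641 and 50.6% ± 1.03, while that of Hk2 was 23.3% ± 0.654 and 32.8% ± 1.12. The Hk3 share of the genotypes thus differed by less than its spread without TNF and by more than that with it. Pfkl made up 46.3% ± 0.767 of phosphofructokinase transcripts in untreated Lyz2cre and 64.0% ± 1.96 in untreated Klf6-deleted cells, and with TNF 78.5% ± 0.617 and 84.1% ± 0.681. Pfkfb3 held 44.2% ± 2.25 of the Pfkfb3 and Pfkfb4 sum in untreated Lyz2cre cells, 43.5% ± 1.86 in Lyz2cre cells with TNF, and 65.0% ± 0.620 and 70.3% ± 2.13 in the matching Klf6-deleted cells, so this ratio stood with the genotype and little with TNF. Egln3 held 7.17% ± 0.914 of the Egln1 and Egln3 sum in untreated Lyz2cre and 24.0% ± 1.73 in untreated Klf6-deleted cells, and with TNF 10.3% ± 0.963 and 33.6% ± 2.67. Eno2 stayed minor, at 0.462% ± 0.149 to 2.89% ± 0.283 of the enolase sum over the 4 groups.

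**Figure D3:**
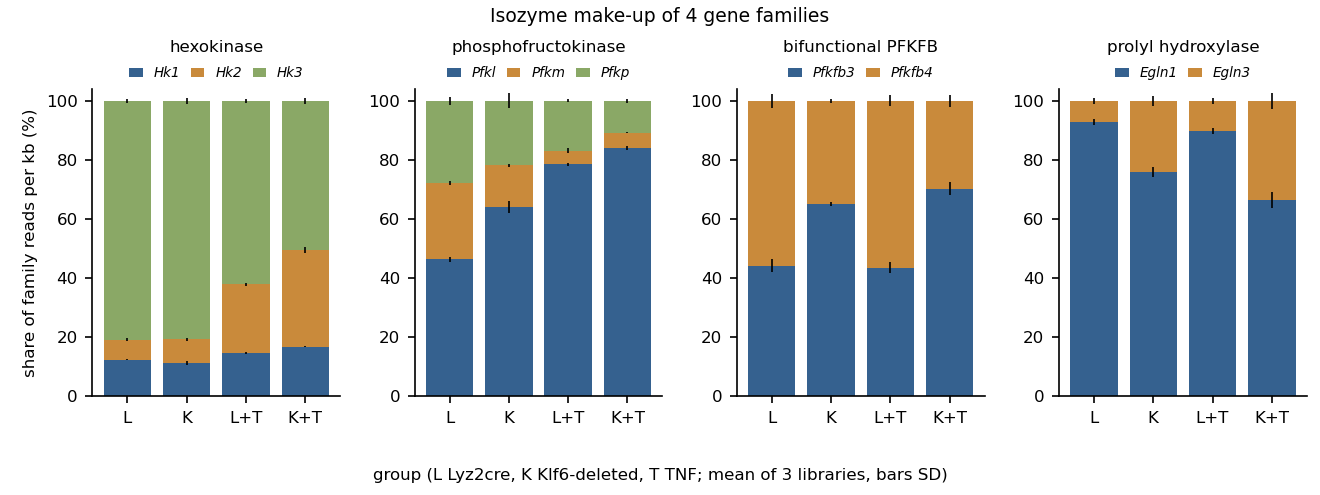
Mean share of each isozyme in its family's normalized counts per kilobase of exon (percent, 3 libraries, bars show the SD) in Lyz2cre (L) and Klf6-deleted (K) cells without and with TNF (+T), for hexokinase, phosphofructokinase, the bifunctional PFKFB enzymes and the prolyl hydroxylases Egln1 and Egln3. Hk3 gives way to Hk2 in the TNF groups, Pfkl gains on Pfkm and Pfkp, and the Pfkfb3 share is 43.5 to 44.2% in Lyz2cre and 65.0 to 70.3% in Klf6-deleted cells.

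The response to TNF within a genotype sets levels across tables that were normalized separately, so it is a description without a test. Slc2a1 was 5.98-fold higher with TNF than without in Lyz2cre cells and 2.94-fold in Klf6-deleted cells. Slc16a3 was 5.35-fold and 3.41-fold higher, Pfkl 4.50-fold and 2.28-fold, and Hk2 3.71-fold and 2.86-fold. For each of these the ratio was the smaller in Klf6-deleted cells, which started from the higher untreated level. Hif1a was 3.01-fold and 2.19-fold higher. Ndrg1 was 6.48-fold lower with TNF in Lyz2cre and 1.67-fold lower in Klf6-deleted cells, Mxi1 4.15-fold and 1.29-fold lower, and Adm 2.76-fold and 15.38-fold lower. The median log2 ratio of the glycolysis genes was 0.49 in Lyz2cre and 0.11 in Klf6-deleted cells, and that of the hypoxia genes was -0.07 and 0.32. The median of all genes was -0.36 and -0.30 on this scale. With size factors computed jointly over the 12 libraries the medians were 0.79 and 0.39 for glycolysis and 0.24 and 0.59 for hypoxia genes, so the sign of the hypoxia median in Lyz2cre cells depends on the scaling.

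The 2 classes were also followed as a share of each library, which does not depend on size factors. The glycolysis genes together took 0.590 to 0.594% of the normalized counts in untreated Lyz2cre libraries and 1.11 to 1.13% in untreated Klf6-deleted ones. With TNF they took 0.894 to 0.907% and 1.504 to 1.55%. The hypoxia genes took 0.0550 to 0.0557% and 0.0743 to 0.0785% without TNF and 0.0727 to 0.0773% and 0.118 to 0.121% with it. For glycolysis no 2 groups overlapped and untreated Klf6-deleted libraries lay above Lyz2cre libraries with TNF, whereas for hypoxia genes those 2 groups overlapped. Sums are led by the most abundant transcripts, here Pkm, Aldoa and Gapdh.

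**Figure D4:**
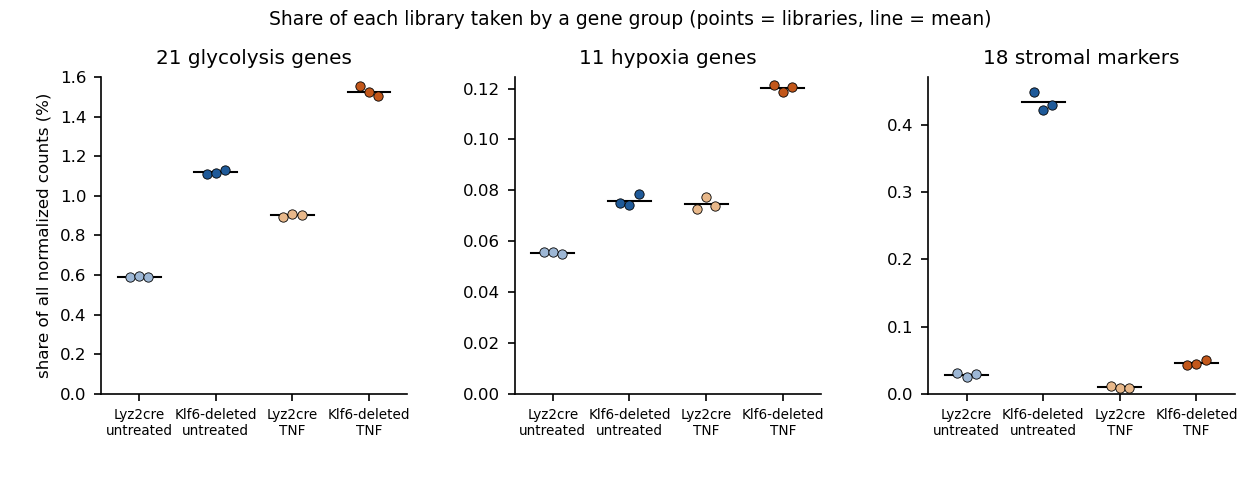
Share of each library's normalized counts (percent, linear axes from 0) taken by the 21 glycolysis genes, the 11 hypoxia genes and 18 stromal marker genes, with a point per library and a line at the group mean. Both gene classes are higher in Klf6-deleted cells in both conditions, while the stromal share goes from at most 0.0305% to at least 0.423% without TNF and is 0.0423 to 0.05001% in Klf6-deleted cells with TNF.

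Markers of several other cells and states differed with genotype in the same libraries. Of all genes tested, 27.6% were called higher and 29.3% lower without TNF, and 26.5% and 30.8% with it. Of 16 stromal markers tested without TNF, out of 18 listed, 16 were higher in Klf6-deleted cells, and their sum was 0.0253 to 0.0305% of the normalized counts in Lyz2cre and 0.423 to 0.4502% in Klf6-deleted libraries. With TNF 12 of 14 were higher, with sums of 0.00851 to 0.0110% and 0.0423 to 0.05001%. These counts lean toward higher, since a marker could pass the filter on low values through Klf6-deleted libraries alone. This held for Lepr, at 2.42 to 4.38 in untreated Lyz2cre libraries. With TNF it held for Pdgfra and Cxcl12, at 8.24 to 11.9 and 2.29 to 18.5 in Lyz2cre libraries. The sums took all listed markers without a filter. All 10 cell cycle genes were higher without TNF (0.00987 to 0.0108% against 0.0267 to 0.0290%) and 9 of 10 with TNF (0.00402 to 0.00468% against 0.00866 to 0.00986%). Monocyte markers had 7 of 8 higher and 1 lower without TNF and 2 higher and 2 lower with TNF. The monocyte sums overlapped without TNF, at 0.0729 to 0.0788% in Lyz2cre and 0.0692 to 0.0837% in Klf6-deleted libraries. With TNF these sums were 0.0139 to 0.0157% and 0.0234 to 0.0241%. Endothelial markers had 5 of 6 higher without TNF and 1 higher and 3 lower of 5 with it. Neutrophil markers had 2 higher and 5 lower of 7 without TNF and 2 lower of 4 with it. The share of neutrophil markers higher without TNF and both monocyte shares with TNF are near those of all genes. All 10 macrophage markers were expressed in every group, with 8 lower and 2 higher in untreated Klf6-deleted cells (0.783 to 0.830% of the counts, against 1.23 to 1.24%) and 6 lower and 4 higher with TNF (1.09% against 1.17 to 1.19%). No stromal marker was at 0 throughout a group. Of the erythroid markers 1 passed the filter on low values and was not called, and no lymphoid marker passed it. The part of these shifts in the differences of the 32 genes was not tested, and in bulk RNA more cells of a type and more RNA per cell cannot be told apart.

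Other genes of the same pathways were read from lists kept beside the members. Beside each count stand the shares of all genes given above, 27.6% higher and 29.3% lower without TNF and 26.5% and 30.8% with it. Of 27 further hypoxia genes tested without TNF, 19 were higher and 4 lower in Klf6-deleted cells, 13 of them at least 2-fold higher (11.1% of all genes), and with TNF 17 of 23 were higher and 2 lower. These counts lean toward higher, since they include genes that passed the filter on low values through Klf6-deleted libraries alone. P4ha2, a collagen prolyl hydroxylase, was at 157 ± 12.0 and 1019 ± 68.4 without TNF and 61.0 ± 5.14 and 385 ± 34.3 with it (SD, n = 3). It is also made by stromal cells, whose markers differed in the same libraries, and their part in its difference was not tested. Vldlr, a lipoprotein receptor, was at 18.6, 20.6 and 14.2 in untreated Lyz2cre and 173, 140 and 181 in untreated Klf6-deleted libraries, 3.14 log2 units higher. Angptl4, a lipase inhibitor, was at 11.9, 13.4 and 5.73 and 48.6, 57.2 and 35.0 with TNF, 2.12 log2 units higher. These Lyz2cre values were all below the filter on low values, so both genes entered through Klf6-deleted libraries alone, which favours a higher call. Vldlr was not tested with TNF.
Of 9 genes of oxygen sensing outside the members, 2 were higher and 1 lower in each condition, and the share that was higher is near that of all genes. Epas1, the alternative alpha subunit of the hypoxia-inducible factor, was at 1374, 1318 and 1448 in untreated Lyz2cre and 2699, 2552 and 2708 in untreated Klf6-deleted libraries. With TNF, Epas1 was at 98.5, 124 and 102 and 326, 362 and 314. It was higher in Klf6-deleted cells in both conditions, where Hif1a turned, by 0.94 and 1.62 log2 units (limma adjusted p = 5.42e-12 and 1.17e-08). Egln2, the remaining prolyl hydroxylase of the family, was lower by 1.20-fold without TNF (limma adjusted p = 0.000124).
Of 11 other glycolysis genes tested without TNF 1 was higher and 3 lower, and with TNF 5 of 12 were higher and 1 lower. The share that was lower without TNF is near that of all genes. Among the 5 was Gapdhs, at 5.97, 16.5 and 16.1 in Lyz2cre and 31.8, 17.3 and 38.9 in Klf6-deleted libraries with TNF. That gene passed the filter on low values through Klf6-deleted libraries alone, which favours a higher call. Slc2a6, a lysosomal hexose transporter of inflammatory macrophages, was at 1047 ± 58.3 and 516 ± 50.1 without TNF and 16387 ± 1460.0 and 5961 ± 107 with it (SD, n = 3). It was thus lower in Klf6-deleted cells with and without TNF, while Slc2a1 was higher (log2 differences -1.02 and -1.46, limma adjusted p = 7.02e-10 and 1.07e-12). Slc2a3, another glucose transporter, was at 28.4 ± 9.38 and 71.5 ± 14.5 with TNF, a difference of 1.33 (limma adjusted p = 0.000473).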

How the data were processed

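Ribosomal RNA-depleted, stranded libraries were made from 150 ng of total RNA per sample, per the labels' protocols, 3 for each of 4 groups. Cufflinks and the builds GRCm39 and mm10 are named per the submitters' processing notes. Not given in the sources used here were the aligner, the counter, the annotation and whether strand was used. The authors deposited 2 tables of gene-level signal per library, 1 without and 1 with TNF. Their unit is not stated. Every deposited value was a whole multiple of 1 step per library (100% of values within 0.001 reads, largest deviation 5.22e-05). The steps were inversely proportional to median-of-ratios size factors computed within a table. Values are therefore read counts divided by a size factor and are called normalized counts. All 12 value columns were used. Libraries of a group differed by more than counting error (chi-square per degree of freedom 2.33 to 9.48), so none was counted as a repeat.

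Genotypes were compared in each table by limma 3.58.1 (R 4.3.3, trend option) on log2(value + 1). Genes entered with 1 CPM or more in 3 or more libraries. The change in the genotype difference was a contrast over 4 groups. Adjustment was Benjamini-Hochberg over all genes tested, with calls below 0.05. The log scale understates the change of low genes. Recovered whole reads were tested by edgeR 4.0.16 and DESeq2 1.42.0 as alternatives, beside another scaling, pseudocount and filter, the replicate number as a block and each library left out. The fit was also run on simulated data with known changes in a small part of the genes and the same spread setting for all genes. Calls were far more common in the real data, so the outcome of that run is not used here. Group means of levels across tables got no test. Isozyme shares used values per kilobase of merged exons (GENCODE release 21).

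The members and lists were chosen with earlier results of these data known. Per-library values are given for members called and at least 2-fold different, called lower or turning between conditions, and for Hif1a, Slc2a1, Ldha and Gapdh. From each other list up to 3 genes per comparison could be named by size of change, and a selection of these picked after their values were seen is given. A further gene of the listed hypoxia genes is not reported here by name.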

Additional observations from a re-analysis of the deposited data

Results flagged for a closer look

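For 27 members the genotype difference (Klf6-deleted against Lyz2cre) was not the same with TNF as without it by a test of that difference in limma over the 4 groups, at an adjusted p below 0.05. In the same test 24.1% of all 13062 genes were called higher and 24.9% lower, so a changed difference was common among all genes. Values are the log2 difference with TNF minus that without. Of transporters and early enzymes, the value was -1.02 for Slc2a1, -0.30 for Hk1, -0.38 for Hk2, -0.93 for Hk3, 0.39 for Gpi1, -0.98 for Pfkl, -0.91 for Pfkp and -0.24 for Pfkfb4. For the lower pathway it was -0.17 for Aldoa, -0.33 for Tpi1, -0.28 for Gapdh, -0.87 for Pgk1, -0.27 for Pgam1, -0.46 for Eno1, 0.81 for Eno2, -0.42 for Pkm and -0.54 for Ldha. The lactate exporter gene Slc16a3 had a value of -0.65. Among hypoxia genes it was -0.46 for Hif1a, 0.28 for Egln1, 0.39 for Egln3, 1.96 for Ndrg1, -2.51 for Adm, 0.89 for Ankrd37, -0.52 for Mif, 1.69 for Mxi1 and 0.52 for Kdm3a. Ndrg1, Hk3, Pfkp, Hk1 and Hif1a changed direction between the conditions, those of Hk1 and Hif1a with TNF turning again under another scaling. Scaled to library sums, the value lost its call for Hk1 (-0.10), Pfkfb4 (-0.05), Aldoa (0.03), Gapdh (-0.09) and Pgam1 (-0.07), with limma adjusted p from 0.164 to 0.668. Markers of stromal and dividing cells differed between the genotypes in both conditions, and their part in these values was not tested.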

How the results depend on the processing

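Scaling to library sums moved most summaries. The glycolysis and hypoxia medians were then 0.9967 and 0.7262 without TNF, 0.7679 and 0.9527 with TNF, and -0.1344 and 0.4708 for the change, and 3 members were lower with TNF. Under it Hk1 and Hif1a with TNF turned to 0.1975 and 0.1776 and the change for Aldoa to 0.0253, the change for Hk1, Pfkfb4, Gapdh and Pgam1 lost its call, and that for Pfkm, Pfkfb3, Pdk1 and Bhlhe40 gained one (0.6215, 0.3462, 0.2151 and 0.2007). By edgeR the medians with TNF were 0.4777 and 0.6594 and the glycolysis change -0.3627. By DESeq2 the glycolysis values were 0.4626 and -0.3562. TNF ratios with joint size factors had medians of 0.7939 and 0.2376 (turned from -0.0662) in Lyz2cre and 0.3861 and 0.5893 in Klf6-deleted cells, and by library sums 0.3193 and 0.5219 in the latter. With the longest transcript as length, Hk3 shares were 74.333 and 74.953% untreated and 56.785 and 45.719% with TNF, in the order Lyz2cre and Klf6-deleted, and Pfkl shares 53.165, 69.537, 81.689 and 86.924%. Leaving out 1 library gave medians of 0.426 to 0.4626 and 0.5977 to 0.6628 with TNF, -0.3563 to -0.2907 and 0.2148 to 0.3155 for the change, and hypoxia TNF ratios of -0.1037 to -0.0287 and 0.2626 to 0.3792. Of 1522 values of single members under alternatives, 1466 kept direction and side of the threshold, 41 lost their call, 12 gained one and 3 turned. Leaving out libraries, the change for Pfkfb3 was called without untreated Lyz2cre library 3 (0.2277) or Lyz2cre library 1 with TNF (0.2118), and that for Pfkm without untreated Lyz2cre library 1 (0.4854) or Lyz2cre library 3 with TNF (0.5862). The causes were not tested, beyond the lower library sums of Klf6-deleted cells.

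Replicate numbers recur between groups. Deviations of libraries with the same number correlated at 0.152, -0.0378 and 0.158 untreated and at -0.0209, -0.0123 and -0.0295 with TNF. Pairs with different numbers ranged from -0.230 to 0.114 untreated and from -0.00154 to 0.0224 with TNF. Untreated, the values of numbers 1 and 3 lay above those of all pairs with different numbers, so these small correlations do not settle pairing there. The numbers are not known to pair samples and were not taken to do so in the main fit. With the replicate block 27 members were higher and 2 lower without TNF, 25 and 4 with TNF, and 7 and 19 for the change. The least expressed member, Adm with TNF, had 9.27 to 25.3 normalized counts, where depth limits any comparison.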

Other observations

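Genes of pathways that branch from glycolysis were counted the same way, beside 27.6% of all genes higher and 29.3% lower without TNF and 26.5% and 30.8% with it. No test compared these pathways with glycolysis. Of 10 glycogen genes tested, 4 were higher and 3 lower in Klf6-deleted cells without TNF, and 9 were higher and none lower with TNF in limma. Gys1, glycogen synthase, was at 381 ± 17.6 and 766 ± 34.8 in untreated Lyz2cre and Klf6-deleted cells and at 794 ± 12.4 and 1816 ± 69.9 with TNF (SD, n = 3). Pgm1, phosphoglucomutase, was at 604 ± 3.26 and 1132 ± 45.1, and with TNF at 758 ± 43.5 and 1527 ± 15.6. Pygl, the glycogen phosphorylase that breaks glycogen down, turned with TNF: it was at 1911 ± 59.8 and 1226 ± 36.9 without TNF and 743 ± 51.9 and 1291 ± 38.8 with it (log2 differences -0.64 and 0.80, limma adjusted p = 1.17e-09 and 2.37e-08).

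Of 7 pentose phosphate genes, 2 were higher and 3 lower without TNF and 1 higher and 3 lower with TNF. G6pdx, the entry enzyme, was at 5204 ± 102 and 4204 ± 140.2 without TNF, a 1.24-fold lower level in Klf6-deleted cells (limma adjusted p = 1.09e-06). Of 28 genes of pyruvate entry and the citric acid cycle, 5 were higher and 10 lower without TNF, and 2 of 27 were higher and 9 lower with it, so that the lower counts are near the share of all genes. Fh1, fumarate hydratase, was at 1255, 1391 and 1258 in untreated Lyz2cre and 649, 646 and 736 in untreated Klf6-deleted libraries, a 1.92-fold lower level (limma adjusted p = 3.79e-10). Pdk4, a pyruvate dehydrogenase kinase, was at 41.6, 30.3 and 26.3 and 453, 437 and 330.4 without TNF, a 12.20-fold higher level (limma adjusted p = 4.77e-12), and at 9.72 or less in every library with TNF. Of 4 gluconeogenesis genes tested without TNF 1 was higher and 1 lower, and of 3 with TNF 1 was higher.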
